A study of Homo sapiens with 12 samples.

Results

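A set of 36 neighbouring genes on the short arm of chromosome 20 was followed across U937 cells that carried an EVI1 expression vector or the empty vector. The genes run in chromosomal order from LINC01723 to NANP, and they were listed because their transcripts had read lower in the EVI1 cells. Each was taken as the probe set annotated to that symbol alone with the highest mean over the 12 arrays, and had to reach a log2 level of 5 on at least 3 arrays. All 36 met that limit, among 14080 tested genes in all. The members were thus selected on the measured difference between EVI1 and vector cells, which is given as a description, with no test. The response to all-trans retinoic acid (ATRA) did not enter the choice and was tested.

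U937 is an established human leukaemia line of monocyte-like cells, and EVI1 is a zinc finger transcription factor and oncogene encoded by MECOM. Cells with the empty vector or the EVI1 vector received 1 µM ATRA or its solvent DMSO for 24 h, which gives 4 groups (EVI1 ATRA, EVI1 DMSO, vector ATRA, vector DMSO) with 3 arrays each, described by the series as biological replicates. RNA was read on Affymetrix 3′ arrays, where a probe set is a group of short probes combined into 1 level. Levels are on the log2 scale, so a difference of -1 is a halving. The labels do not say whether the EVI1 cells are a pool or 1 clone. The 2 vectors define 2 cell populations, so any other difference between these populations cannot be told apart from EVI1. The arrays measured RNA, and the number of gene copies was not measured. A lower level in these bulk samples can be fewer cells that express a gene or less RNA per cell, and the arrays cannot tell these apart.

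Genes that lie side by side on a human chromosome mostly have unrelated functions. This stretch holds housekeeping genes of RNA processing, DNA replication, mitochondria and vesicle transport, a few genes with a narrow tissue range, and long non-coding RNAs. Some neighbours are arranged head to head, which means that they are transcribed away from each other from a shared start region. Myeloid cells use several of the genes in specialised roles, such as CST7, which encodes an inhibitor of the proteases that activate granule enzymes.

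As a check of the series, Pearson's r between arrays within a group was 0.987 to 0.995 across probe sets, and array medians lay between 5.29 and 5.35. MECOM read between 2.61 and 3.60 on all arrays with its 5 probe sets, below the lower quartile of every array (3.83 to 3.91), so the EVI1 label is not checked by these data. Of 10 myeloid markers 8 had a probe set of their own, and LYZ (13.10), LAPTM5 (13.09), ITGB2 (11.71) and CD4 (7.95) were high, while SPI1 (6.62), CD86 (5.54), MPO (5.29) and FCGR1A (3.46) were low or near background. Under DMSO the mean of these 8 was 8.25 in vector and 8.30 in EVI1 cells, and under ATRA 8.37 and 8.46. Markers of B, T and NK, erythroid and epithelial cells averaged between 4.60 and 6.17 on every array. Those of fibroblasts and endothelium averaged between 5.88 and 6.21, with PECAM1 at 11.25, a gene that leukocytes express as well. Single markers within these lists varied. EPCAM (3.04), CDH5 (3.32) and MS4A1 (4.21) were low, whereas NKG7 (7.61), COL1A1 (7.5), PAX5 (6.88), CD79A (6.52) and HBB (6.09) read as high as or higher than some of the myeloid markers. Their part in the results was not tested.

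The start regions of 4 members are shown because these genes had the lowest average difference between EVI1 and vector cells. RefSeq promoter windows of 300 bases (assembly GRCh38.p14) were found for 33 of the 36 members. GINS1 and PET117 are read on the plus strand from the windows chr20:25407423-25407672 and chr20:18137613-18137862. ESF1 is read on the minus strand (chr20:13784920-13785169) and NXT1 on the plus strand (chr20:23350541-23350790). The 250 bases before each start are given, with capitals for the CCAAT box on either strand.
GINS1: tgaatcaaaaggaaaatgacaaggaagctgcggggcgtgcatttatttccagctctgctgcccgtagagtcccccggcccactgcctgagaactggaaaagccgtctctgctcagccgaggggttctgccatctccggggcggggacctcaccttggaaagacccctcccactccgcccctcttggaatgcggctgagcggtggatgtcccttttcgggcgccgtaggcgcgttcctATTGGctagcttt
PET117: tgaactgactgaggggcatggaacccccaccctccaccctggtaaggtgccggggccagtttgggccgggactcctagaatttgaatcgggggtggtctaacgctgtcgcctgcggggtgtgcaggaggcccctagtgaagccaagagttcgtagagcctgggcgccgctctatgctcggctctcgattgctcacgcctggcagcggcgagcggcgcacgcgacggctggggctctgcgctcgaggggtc
ESF1: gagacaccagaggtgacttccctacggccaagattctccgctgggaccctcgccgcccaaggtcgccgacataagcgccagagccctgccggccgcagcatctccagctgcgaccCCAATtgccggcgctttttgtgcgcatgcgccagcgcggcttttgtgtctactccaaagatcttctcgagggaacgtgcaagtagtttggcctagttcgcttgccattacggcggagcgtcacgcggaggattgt
NXT1: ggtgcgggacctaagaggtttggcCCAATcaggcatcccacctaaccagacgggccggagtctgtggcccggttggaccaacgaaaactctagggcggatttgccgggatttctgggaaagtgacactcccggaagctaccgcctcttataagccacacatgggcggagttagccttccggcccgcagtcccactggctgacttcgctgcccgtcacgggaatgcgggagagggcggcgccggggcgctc

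These stretches are rich in G and C, at 60.0% for GINS1, 66.4% for PET117, 61.2% for ESF1 and 63.6% for NXT1. The median was 63.3% over the 43 windows of the members and 58.7% over all 35116 windows of the table. GATAAG, the core of the site bound by the first zinc finger domain of EVI1, was found on either strand in 2 of the 43 member windows (4.65%), against 6.36% of all windows, and in none of the 4 stretches printed. CCAAT was found on either strand in 14 member windows (32.6%) against 34.6% of all windows, and in the GINS1, ESF1 and NXT1 stretches. All capitals in the printed stretches therefore mark CCAAT. A match or its absence describes these windows and says nothing of binding.

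There were 3 head-to-head pairs among the members, in which the windows of both genes cover the same bases from opposite strands. ESF1 and NDUFAF5 share 208 bases, so the ESF1 stretch above is largely the NDUFAF5 start region as well. SNX5 and MGME1 share 277 bases, and DZANK1 and POLR3F share 141. Partners in a pair had like differences between EVI1 and vector cells, averaged over both agents. They were -0.84 for ESF1 and -0.74 for NDUFAF5, -0.61 for SNX5 and -0.66 for MGME1, and -0.52 for both DZANK1 and POLR3F. By agent the last pair differed, at -0.41 under DMSO and -0.63 under ATRA for DZANK1 and -0.66 and -0.37 for POLR3F. Members with a mean level of 7 or more had medians of -0.61 and -0.67. All members were chosen by this contrast, so like values in a pair were likely beforehand. Whether pairs are more alike than other neighbours was not tested.

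By the sign of the difference in means, 31 of the 36 transcripts were lower in EVI1 than in vector cells under both agents. So were 33.2% of all tested genes. The median difference over the members was -0.58 under DMSO and -0.60 under ATRA, which is 66.7% and 65.8% of the level in vector cells, beside a median of 0.02 and -0.01 over all tested genes. In 19 members all 6 EVI1 arrays read below all 6 vector arrays, while 1.70% of all tested genes did so. Within an agent, all 3 EVI1 arrays lay below all 3 vector arrays in 25 members under DMSO and 25 under ATRA, beside 6.35% and 9.03% of all tested genes. Since this contrast chose the genes, these counts describe them and support nothing further.

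**Figure D1:**
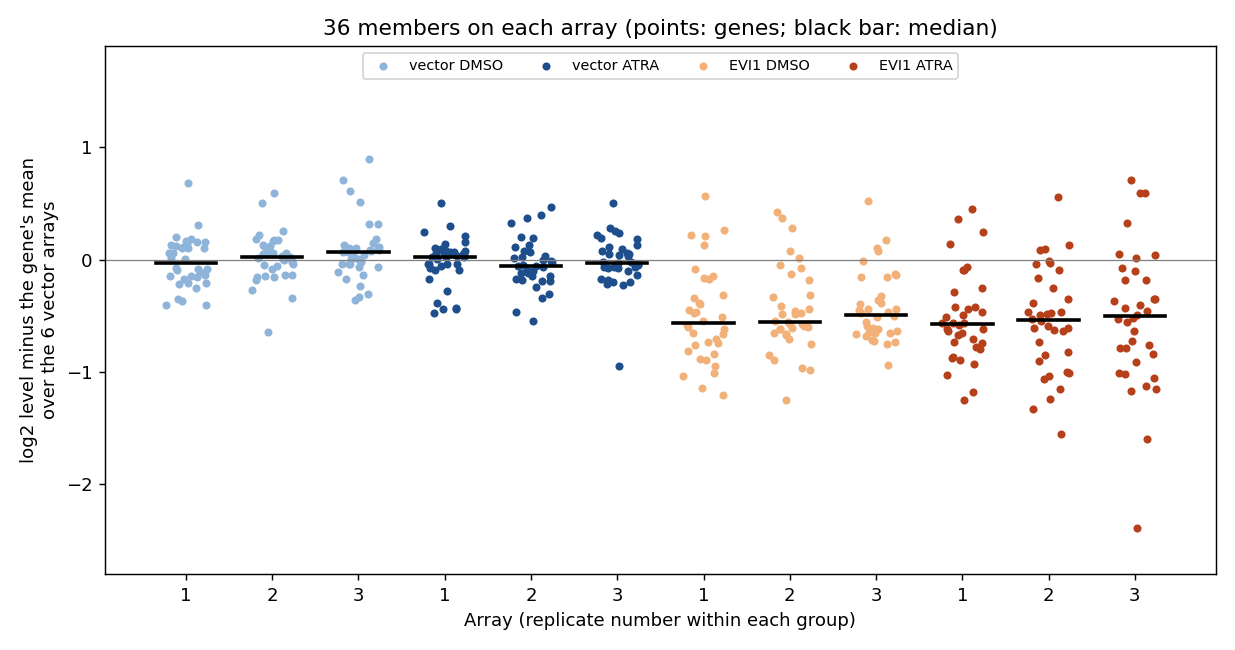
Level of each of the 36 members on each array, as log2 minus the gene's own mean over the 6 vector arrays; points are genes, colours are the 4 groups and black bars are medians. The medians of the 6 vector arrays lie between -0.06 and 0.06 and those of the 6 EVI1 arrays between -0.57 and -0.49, with single genes spread on both sides.

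The shift was alike on every array. The median of the members, each set against its own mean in vector cells, was -0.56, -0.55 and -0.49 on the EVI1 DMSO arrays and -0.57, -0.54 and -0.50 on the EVI1 ATRA arrays. It was -0.04, 0.02 and 0.06 on the vector DMSO arrays and 0.02, -0.06 and -0.03 on the vector ATRA arrays. Taken by replicate number, the median difference of EVI1 from vector cells was -0.58, -0.56 and -0.61 under DMSO and -0.52, -0.62 and -0.58 under ATRA. The SD of a member within a group was 0.15 in the median.

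Genes of RNA and DNA handling gave the lowest value of the set. GINS1 encodes a subunit of the GINS complex, which works in the helicase that opens DNA for replication. It read 10.77, 10.85 and 10.94 in vector DMSO and 10.89, 10.79 and 10.91 in vector ATRA. In EVI1 cells it read 9.91, 9.89 and 9.92 under DMSO and 9.93, 9.31 and 9.26 under ATRA. The vector and EVI1 arrays did not overlap, and the difference was -0.95 under DMSO and -1.36 under ATRA, or 51.9% and 38.9% of the vector level.

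ESF1 encodes a nucleolar factor of ribosomal RNA processing. Its levels were 8.47, 8.30 and 9.17 in vector DMSO against 7.86, 7.57 and 8.30 in EVI1 DMSO. Under ATRA they were 8.29, 7.99 and 8.54 against 7.43, 7.13 and 7.45. The arrays of the cell types overlapped under DMSO, where replicate 3 was the highest array in both, and did not overlap under ATRA. The differences were -0.74 and -0.94.

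NXT1 encodes the partner of NXF1 in export of messenger RNA from the nucleus. It read 9.89, 9.93 and 10.08 in vector DMSO and 9.35, 9.22 and 9.34 in EVI1 DMSO, then 10.05, 9.95 and 9.93 in vector ATRA and 9.35, 8.96 and 8.82 in EVI1 ATRA. The lowest vector array stood above the highest EVI1 array, with differences of -0.66 and -0.93. The remaining genes of this kind were SNRPB2 of the U2 spliceosomal particle (-0.64 under DMSO and -0.64 under ATRA), the nuclear exoribonuclease gene XRN2 (-0.61 and -0.65), the RNA polymerase III subunit gene POLR3F (-0.66 and -0.37) and GZF1, a zinc finger repressor (-0.61 and -0.46). VSX1, a homeobox gene of the retina, read between 4.97 and 5.58 on all arrays and differed by -0.02 and -0.04.

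All 5 mitochondrial members were lower in EVI1 cells under both agents, and in 3 of them every EVI1 array lay below every vector array. Of all 36 members, which were chosen for lower values, 31 were lower under both, beside 33.2% of all tested genes. PET117 encodes an assembly factor of cytochrome c oxidase, the last enzyme of the respiratory chain. It read 8.49, 8.59 and 8.65 in vector DMSO and 7.33, 7.86 and 7.59 in EVI1 DMSO. With ATRA the values were 7.91, 8.15 and 8.24 in vector and 7.16, 7.19 and 7.21 in EVI1 cells. The groups did not overlap, and the EVI1 level was 50.6% of the vector level under DMSO and 53.1% under ATRA.

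NDUFAF5 encodes an assembly factor of respiratory complex I. Vector cells read 8.51, 8.34 and 8.45 under DMSO and 8.39, 8.20 and 8.21 under ATRA, and EVI1 cells read 7.69, 7.91 and 7.62 and then 7.61, 7.53 and 7.30. No EVI1 array reached the lowest vector array. MGME1, an exonuclease gene of mitochondrial DNA maintenance, read 8.69, 8.83 and 8.99 in vector DMSO, 8.06, 8.25 and 8.44 in EVI1 DMSO, 9.34, 9.42 and 9.32 in vector ATRA and 8.53, 8.63 and 8.73 in EVI1 ATRA. Within each agent its groups were apart. Across agents the highest ATRA-treated EVI1 array (8.73) stood just above the lowest untreated vector array (8.69), with means of 8.63 and 8.84. ACSS1, the mitochondrial acetyl-CoA synthetase gene, differed by -0.58 and -0.59, and SMIM26, which encodes a small mitochondrial membrane protein, by -0.53 and -0.41.

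**Figure D2:**
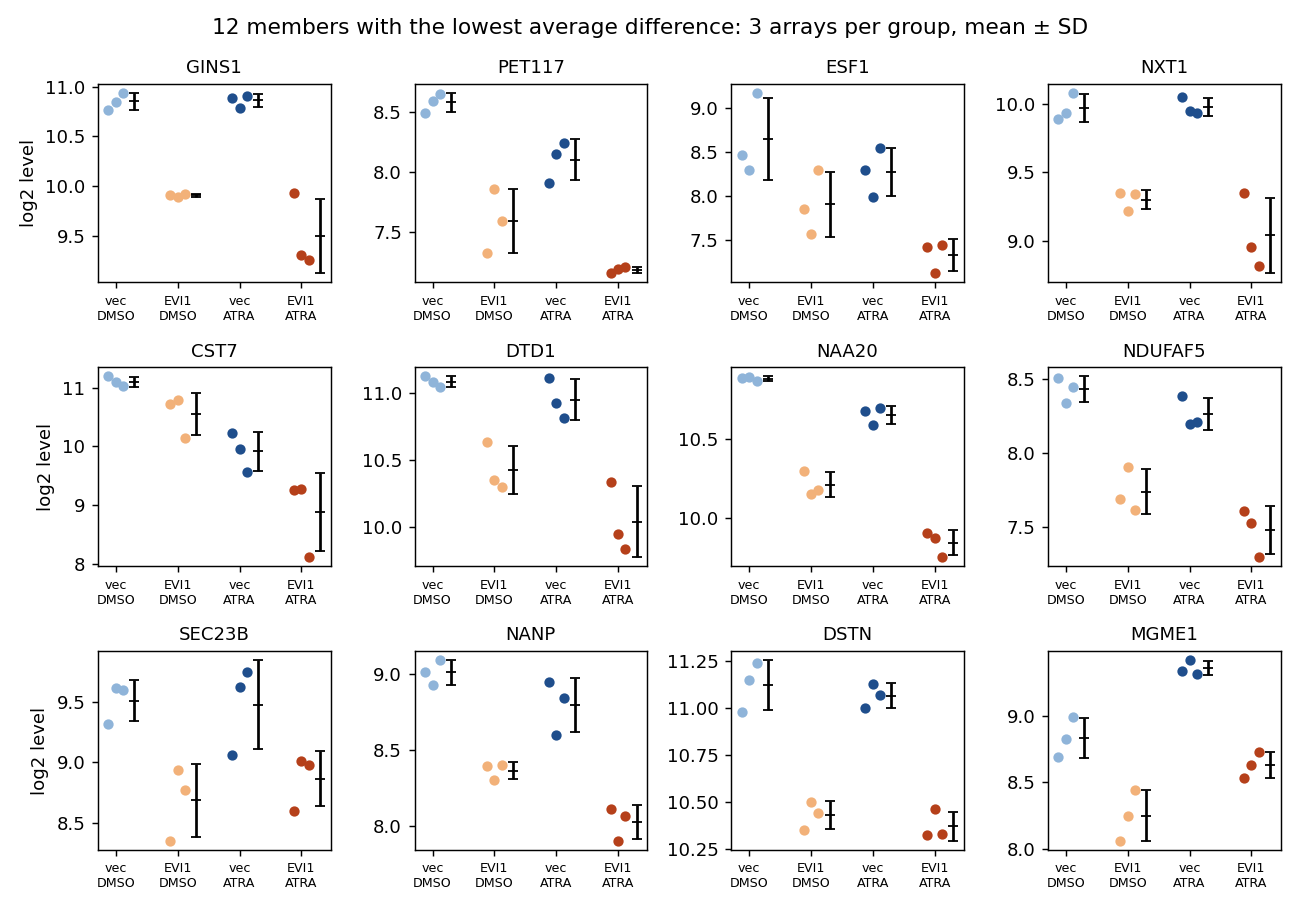
Log2 level on each array for the 12 members with the lowest difference averaged over both agents; points are the 3 arrays of a group and bars are the mean ± SD, with a separate vertical scale for each gene that does not start at 0. In 9 of the 12 genes every EVI1 array lies below every vector array, and ESF1, CST7 and MGME1 overlap across the groups.

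Among enzymes that act on proteins and RNA, DTD1 and NAA20 were the lowest. DTD1 removes D-amino acids from transfer RNA. Its levels were 11.12, 11.08 and 11.04 in vector DMSO, 10.63, 10.35 and 10.30 in EVI1 DMSO, 11.11, 10.92 and 10.81 in vector ATRA and 10.34, 9.95 and 9.84 in EVI1 ATRA. All EVI1 arrays were below all vector arrays, by -0.65 under DMSO and -0.90 under ATRA in the mean.

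NAA20 is the catalytic subunit of NatB, which acetylates the N-terminus of many proteins. It read 10.89, 10.90 and 10.87 in vector DMSO, 10.30, 10.15 and 10.18 in EVI1 DMSO, 10.68, 10.59 and 10.70 in vector ATRA and 9.90, 9.87 and 9.75 in EVI1 ATRA. These were narrow groups without overlap (SD from 0.02 to 0.08, n = 3). The serine hydrolase gene RBBP9 differed by -0.48 and -0.73. TASP1, a protease that cleaves KMT2A, differed by -0.22 and -0.46 at a mean level of 6.99.

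Of the 8 members of vesicle transport and the cytoskeleton, 7 were lower under both agents by the sign of the difference in means. So were 31 of all 36 members and 33.2% of all tested genes. Under ATRA, RRBP1, RIN2 and NINL among the 7 differed by only -0.07, -0.08 and -0.02. In 4 of the 8 every EVI1 array lay below every vector array. The members were chosen for lower values, so these counts do not describe the class. SEC23B, an inner coat subunit of the vesicles that leave the endoplasmic reticulum, read 9.32, 9.62 and 9.60 in vector DMSO and 8.35, 8.94 and 8.77 in EVI1 DMSO. Under ATRA it read 9.06, 9.63 and 9.75 in vector and 8.60, 9.01 and 8.98 in EVI1 cells. Replicate 1 was the lowest array of all 4 groups, and the lowest vector array (9.06) stood just above the highest EVI1 array (9.01).

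DSTN encodes destrin, which takes actin filaments apart. It read 10.98, 11.15 and 11.24 in vector DMSO, 10.35, 10.50 and 10.44 in EVI1 DMSO, 11.00, 11.13 and 11.07 in vector ATRA and 10.32, 10.46 and 10.33 in EVI1 ATRA. Its groups were well apart and the difference hardly varied with the agent (-0.69 and -0.70). The sorting nexin gene SNX5 differed by -0.58 and -0.64, and DZANK1 by -0.41 and -0.63. RIN2, which activates RAB5, differed by -0.61 and -0.08 at a mean level of 5.42, and the centrosomal gene NINL by -0.39 and -0.02 at 5.16. KIF16B, a kinesin of early endosomes, was not lower, with differences of 0.14 and 0.17 at a mean level of 5.68.

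Of the genes of metabolism, transport and secretion, CST7 and NANP had the lowest averages. CST7 encodes cystatin F, a cathepsin inhibitor of leukocytes. It read 11.19, 11.10 and 11.02 in vector DMSO, 10.72, 10.79 and 10.15 in EVI1 DMSO, 10.23, 9.96 and 9.56 in vector ATRA and 9.26, 9.27 and 8.12 in EVI1 ATRA. Groups were apart within each agent and overlapped across agents, since treated vector cells read lower than most untreated EVI1 cells. Replicate 3 was the lowest array in every group.

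NANP, a phosphatase of sialic acid synthesis, read 9.01, 8.93 and 9.09 in vector DMSO, 8.39, 8.30 and 8.40 in EVI1 DMSO, 8.95, 8.60 and 8.84 in vector ATRA and 8.11, 7.90 and 8.06 in EVI1 ATRA. No array of the EVI1 cells reached 8.60, the lowest vector value. APMAP (-0.62 and -0.51), the nucleoside diphosphatase gene ENTPD6 (-0.46 and -0.77), the glycogen phosphorylase gene PYGB (-0.52 and -0.46) and the lipase gene ABHD12 (-0.48 and -0.36) lay between. The sodium/calcium exchanger gene SLC24A3 differed by -0.58 and -0.25 at a mean level of 5.71. GGTLC1 was the one protein-coding member besides KIF16B with higher means in EVI1 cells under both agents (0.19 and 0.36). It belongs to the gamma-glutamyltransferase family, whose copies are similar in sequence, and its probe set may read more than 1 of them.

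The long non-coding RNAs did not take part in the shift. LINC01723 differed by 0.10 and -0.07, LINC00851 by 0.16 and -0.02 and LINC00652 by 0.17 and 0.04, at mean levels of 4.87, 6.5 and 5.28. Together with KIF16B and GGTLC1 these are the 5 members for which the label of lower genes does not hold under both agents. This count goes by the sign of the difference in means alone. Among the members counted as lower, VSX1 differed by -0.02 and -0.04. Under ATRA NINL differed by -0.02, RRBP1 by -0.07 and RIN2 by -0.08. In each of these genes the arrays of the cell types overlapped under ATRA.

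Whether a member read lower went with its level on the array. All 26 members with a mean log2 level of 7 or more were lower under both agents, beside 32.9% of all tested genes at that level. Their averages ran from -1.16 to -0.27, with medians of -0.61 under DMSO and -0.67 under ATRA. Of the 10 members under a level of 7, 5 were lower under both, with averages from -0.42 to 0.27 and medians of 0.04 and -0.03. Array signals compress differences near background. The part of this in the result was not tested. Other probe sets of the members had medians of -0.24 (DMSO) and -0.29 (ATRA) at mean levels of 5 to under 7. Those under 5 had medians of -0.015 and -0.105. Among those of 5 to under 7, the probe set of SNRPB2 (mean level 5.11) differed by -0.63 and -0.52. The limit of 7 was set after the values were seen, and 5 members had a mean between 6.5 and 7.5.

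**Figure D3:**
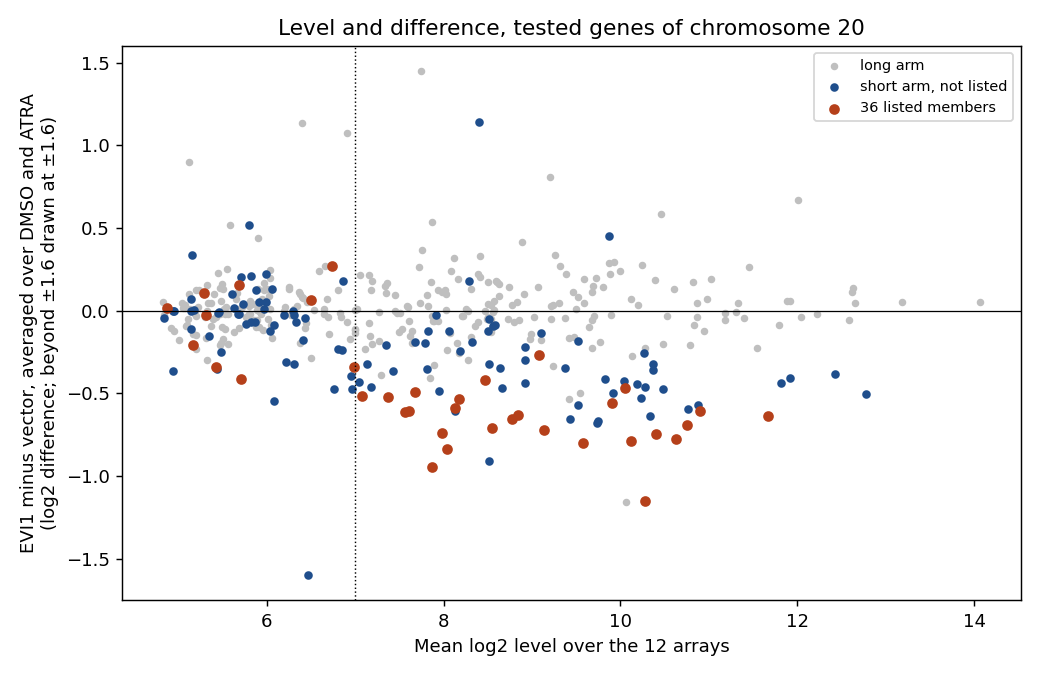
Difference of EVI1 from vector cells averaged over both agents (vertical, log2) against the mean log2 level over the 12 arrays (horizontal), for the tested genes of chromosome 20; red points are the 36 members, blue the other genes of the short arm and grey the long arm, and the dotted line marks a level of 7. All 26 members right of that line lie below 0, while members left of it lie on both sides.

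The other probe sets of the same genes, which the rule did not pick, give a second reading from the same arrays. There were 45, for 23 of the members. Their genes were chosen by this contrast on these arrays, so lower values were likely beforehand. Of the 11 with a mean level of 7 or more all were lower under both agents and 9 were separated over all 12 arrays. Their medians were -0.74 under DMSO and -0.65 under ATRA. Of all tested genes at that level, each by its brightest probe set, 32.9% were lower under both and 2.06% were separated. Of the 16 between 5 and 7, 12 were lower under both, and of the 18 under 5, 9 were. SEC23B, for example, had other probe sets at -0.80 and -0.87 under DMSO and at -0.65 and -0.63 under ATRA. SNX5 had 3 at a level of 7 or more, from -0.75 to -0.50 under DMSO. Probe sets of RRBP1 disagreed, at -0.32 and -0.06 for the next brightest and between -0.28 and 0.18 for the rest.

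The 36 members do not fill the stretch between the first and the last of them, which holds 53 tested genes. Of the other 17, 9 were lower under both agents, beside 33.2% of all tested genes. The 17 had medians of -0.07 under DMSO and -0.13 under ATRA, at a median level of 5.82. They included ZNF133, which was separated over all arrays (-0.38 and -0.57), and KIZ (-0.41 and -0.56). THBD, the thrombomodulin gene, also lies here and was far lower (-3.44 and -4.87), whereas RALGAPA2 was higher (1.06 and 1.22). CD93 differed by -0.48 and -0.33, NAPB by -0.17 and -0.48, CST3 by -0.07 and -0.20 and INSM1 by -0.32 and -0.18. The remaining 9, among them several cystatin genes and FOXA2, all had mean levels under 7 and differences between -0.19 and 0.18.

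Nor did the lower values stop at the ends of the list. Just outside it, MKKS (-0.49 and -0.70) and SLX4IP (-0.37 and -0.34) were lower, while JAG1, the nearest tested gene before LINC01723, was not (0.04 and -0.09). On the other side ZNF337 read lower (-0.18 and -0.61), followed by FRG1BP (-0.36 and -0.05) and DEFB118 (-0.33 and -0.13) on the long arm. The 84 tested genes before the first member had medians of -0.23 and -0.25. Of these, 15 were separated over all arrays, beside 1.70% of all tested genes. Among the 15 were FERMT1 (-0.79 and -1.03), TRMT6 (-0.68 and -0.62) and the replication gene MCM8 (-0.37 and -0.84). Of the 84, 49 had a mean level of 7 or more, with medians of -0.35 and -0.39. Of these 49, 45 were lower under both agents, beside 32.9% of all tested genes at that level.

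The long arm taken whole did not follow. Its 292 tested genes had medians of 0.02 under DMSO and 0.00 under ATRA (-0.005 before rounding), with 3 of them separated lower and 2 separated higher (ATP9A and PPDPF) over all arrays. Of the lower ones, HM13 (-1.20 and -1.12) and BCL2L1 (-0.36 and -0.31) are among the first 10 tested genes of the long arm (a span chosen after the values were seen), and PIGU (-0.34 and -0.72) lies further out. Those first 10 had medians of -0.30 under DMSO and -0.09 under ATRA, and 6 of them were lower under both agents. The 282 genes after them had medians of 0.03 and -0.003. Over the whole short arm, 99 of 138 tested genes were lower under both agents, beside 33.2% of all tested genes. The members, chosen for lower values, supply 31 of these 99. Of the unlisted genes, 58 of the 84 before the first member and 9 of the 17 between members were lower under both. The difference averaged over agents had a short-arm median of -0.32, members included. Medians ran from -0.10 to 0.03 on the long arm and the other autosomes. Those autosomes were taken whole, where a shift of 1 arm or block would be diluted.

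**Figure D4:**
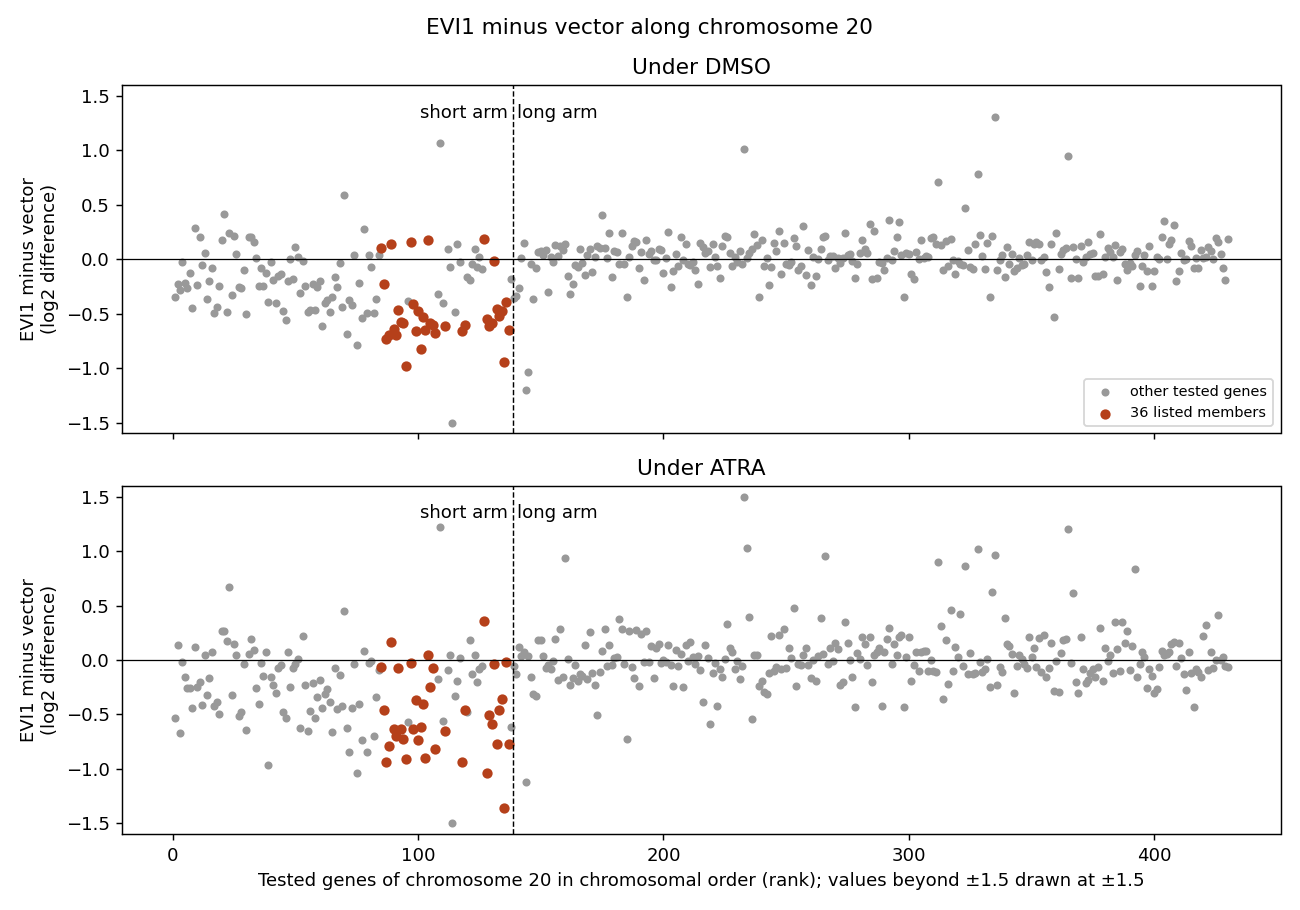
Difference of EVI1 from vector cells (vertical, log2) for the 430 tested genes of chromosome 20 in chromosomal order (horizontal, rank), under DMSO (top) and ATRA (bottom); red points are the 36 members, grey the other genes, and the dashed line parts the arms. Most short-arm genes lie below 0 and the long-arm genes lie around 0 (medians of -0.26, members included, and 0.02 under DMSO).

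ATRA had no part in choosing the genes, and few of them passed its test in the model without the replicate number. In vector cells 2 members rose and 1 fell by limma's test (adjusted p under 0.05 over all tested genes), which is 3 of 36 where 3.52% of all genes were called (2.00% higher and 1.52% lower). In EVI1 cells 3 rose and 2 fell, where 15.1% of all genes were called (7.45% higher and 7.66% lower). With the replicate number as a block, 5 rose and 4 fell in vector cells and 6 rose and 9 fell in EVI1 cells, where the same blocked fit called 2818 and 5023 of the 14080 genes. The median ATRA effect was -0.06 in vector and -0.14 in EVI1 cells, beside 0.00 (-0.003 before rounding) and -0.02 over all genes. The count in vector cells is not stable: it was 0 without any 1 of vector DMSO replicates 1 and 2 or vector ATRA replicates 1, 2 and 3, and 1 without EVI1 DMSO replicate 2. In EVI1 cells it was 12 without EVI1 ATRA replicate 1, 2 without EVI1 ATRA replicate 3, and 3 without EVI1 DMSO replicate 1 or 2.

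RRBP1 and CST7 were called in both cell types without the block, in opposite directions. With the block, PET117 fell in both (-0.48 and -0.41, limma adjusted p = 0.00799 in vector and 0.00813 in EVI1 cells). ESF1 fell in both as well (-0.37 and -0.57, limma adjusted p = 0.0429 and 0.00296 with the block). RRBP1, whose protein tethers ribosomes to the rough endoplasmic reticulum, read 8.84, 8.57 and 8.85 in vector DMSO and 9.72, 9.58 and 9.72 in vector ATRA. In EVI1 cells it read 8.33, 7.96 and 8.58 and then 9.57, 9.31 and 9.92. It rose by 0.92 ± 0.18 (SE, n = 3) in vector cells (limma adjusted p = 0.0192) and by 1.31 ± 0.18 in EVI1 cells (limma adjusted p = 0.00127). Treated and untreated arrays did not overlap, and under ATRA the difference between the cell types was -0.07, against -0.46 under DMSO. The call in vector cells was lost in 5 of the 12 fits that left out 1 array. Averaged over its 7 probe sets, the rise in vector cells was 0.30 and was not called (limma adjusted p = 0.0689).

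CST7 fell in both, with a log2 difference of -1.19 ± 0.29 (SE, n = 3) in vector cells (limma adjusted p = 0.0451) and -1.67 ± 0.29 in EVI1 cells (limma adjusted p = 0.00375), on the array values given above. The fall in vector cells lost its call in 8 of the 12 fits that left out 1 array (adjusted p up to 0.165), and the fall in EVI1 cells kept it in all 12. MGME1 rose by 0.52 ± 0.12 in vector cells (limma adjusted p = 0.0351) and differed by 0.38 ± 0.12 in EVI1 cells (limma adjusted p = 0.0507, 0.00479 with the block). Its call in vector cells was lost in 7 of 12 such fits.

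NAA20, GZF1 and GGTLC1 were called in EVI1 cells alone, and the test of the difference between cell types did not call them. NAA20 fell by 0.37 ± 0.09 (limma adjusted p = 0.0172). GZF1 read 7.24, 7.46 and 8.0 in EVI1 DMSO and 8.19, 8.09 and 8.48 in EVI1 ATRA, a rise of 0.69 ± 0.19 (limma adjusted p = 0.0289), and 8.04, 8.10 and 8.38 against 8.60, 8.91 and 8.63 in vector cells (0.54 ± 0.19, limma adjusted p = 0.149). GGTLC1 read 6.45, 6.61 and 6.77 in EVI1 DMSO and 7.05, 7.16 and 7.19 in EVI1 ATRA, a rise of 0.52 ± 0.13 (limma adjusted p = 0.0212). Its vector arrays were 6.35, 6.63 and 6.29 and then 6.67, 7.0 and 6.66 (0.35 ± 0.13, limma adjusted p = 0.182). With the block all 3 were called in vector cells too, at adjusted p of 0.0432, 0.0239 and 0.0354. Leaving out 1 array ended the call in EVI1 cells in 2 fits for NAA20, 3 for GZF1 and 4 for GGTLC1.

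**Figure D5:**
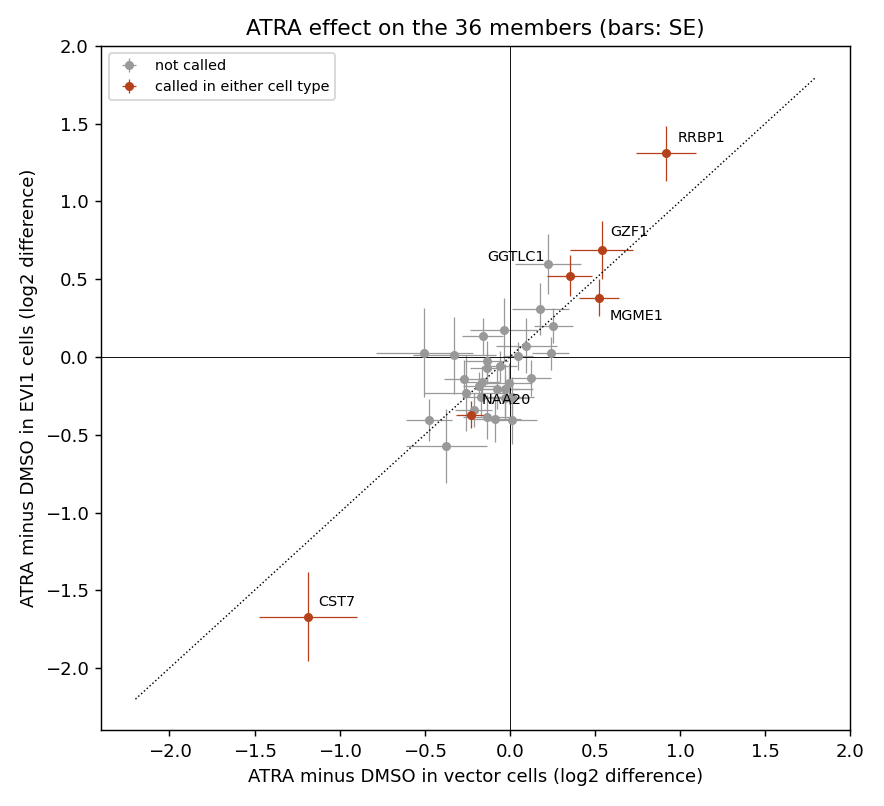
ATRA minus DMSO in vector cells (horizontal) against the same in EVI1 cells (vertical), both as log2 differences, for the 36 members. Bars are the SE of the model without the block. Red points were called by that model in either cell type, and the dotted line marks equal effects. RRBP1 and CST7 stand apart at the upper right and lower left, and most other members lie within 0.6 of 0 on both axes.

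No member was called by limma's test of the interaction between ATRA and cell type, the ATRA effect in EVI1 cells minus that in vector cells. The count was 0 of 36 with or without the block, and 0.00% of all genes were called. At an unadjusted p under 0.05 there were 0 members, and 2 with the block, beside 2.57% and 13.1% of all genes. Estimates ran from -0.48 ± 0.41 (SE) for CST7 to 0.53 ± 0.40 for RIN2, with SEs from 0.12 to 0.41. With 3 arrays a group, these errors limit the difference in response that could be called. GINS1 had the smallest unadjusted p in limma's test (0.0763), at -0.42 ± 0.21. Its 3 EVI1 ATRA arrays were uneven, since replicate 1 (9.93) stayed at the level of EVI1 DMSO.

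Partners and paralogs of the members that lie on other chromosomes were examined in the same contrast, which had not chosen them. The list holds 86 genes of the same complexes or families, of which 81 were tested. Under DMSO limma called 0 of the 81 between the cell types, where 1.21% of all genes were called (0.533% higher and 0.682% lower). At an unadjusted p under 0.05 there were 5 partners, beside 9.79% of all genes. The blocked fit called 1 higher and 1 lower, beside 7.19% of all genes. Under ATRA 3 were higher and 2 lower, where 5.61% of all genes were called (3.28% higher and 2.33% lower), and with the block 11 were higher and 13 lower, where 25.3% of all genes were called. Medians were 0.01 and 0.02. Only CTSC had all EVI1 arrays below all vector arrays, which is 1.23% of the partners.

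None of the complex partners and relatives of the lowest members named here was called under DMSO. SEC23A, the paralog of SEC23B, differed by -0.02 ± 0.19 (SE) under DMSO and 0.18 ± 0.19 under ATRA. The other GINS subunits stood at 0.06 ± 0.28 (GINS2), -0.07 ± 0.22 (GINS3) and -0.50 ± 0.23 (GINS4) under DMSO. Under ATRA they were at -0.71 ± 0.28, -0.51 ± 0.22 and -0.80 ± 0.23, not called without the block (limma adjusted p from 0.0701 to 0.210) and called with it (0.00978 to 0.0147). On the EVI1 ATRA arrays GINS2 read 10.52, 9.43 and 9.19, so replicate 1 was the highest there as it was for GINS1. NAA25, which pairs with NAA20, was at -0.08 ± 0.19 and -0.36 ± 0.19 (limma adjusted p = 0.307 under ATRA, 0.0389 with the block), and PET100, another assembly factor of cytochrome c oxidase, at 0.21 ± 0.10 and 0.08 ± 0.10. NXT2, the paralog of NXT1, differed by -0.03 ± 0.13 and 0.02 ± 0.13, CFL1, a relative of DSTN, by -0.05 ± 0.09 and -0.03 ± 0.09, and DTD2 by -0.24 ± 0.09 and -0.32 ± 0.09 (limma adjusted p = 0.0584 under ATRA, 0.0103 with the block). The sialic acid synthesis genes NANS (0.09 ± 0.12) and CMAS (0.01 ± 0.13), which act with NANP, were not called under DMSO.

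Of the 5 partners called under ATRA, 3 were higher and 2 lower in EVI1 cells. SNX6, the paralog of SNX5, was higher in EVI1 cells, at 10.39, 10.50 and 10.53 against 10.05, 10.22 and 10.10 in vector cells (0.35 ± 0.09, limma adjusted p = 0.0417). RIN3 was higher by 0.81 ± 0.18 (limma adjusted p = 0.0263) and RAB5B, a target of RIN proteins, by 0.46 ± 0.12 (limma adjusted p = 0.0473). POLR3G, an alternative subunit of RNA polymerase III, was lower by -1.12 ± 0.24 (limma adjusted p = 0.0194). CTSC, a protease inhibited by cystatin F, read 11.09, 11.16 and 11.27 against 11.52, 11.54 and 11.53 (-0.36 ± 0.09, limma adjusted p = 0.0359, and -0.31 ± 0.09 with adjusted p = 0.144 under DMSO). Leaving out 1 array ended the call of SNX6 in 11 of 12 fits, of RAB5B in 10, of CTSC in 8, of RIN3 in 5 and of POLR3G in 4, and each kept its direction. The count of 5 was 14 without EVI1 ATRA replicate 1. It was 0 without any 1 of EVI1 ATRA replicates 2 and 3 or vector ATRA replicates 1 and 3, and 1 without vector ATRA replicate 2. It was 2 without EVI1 DMSO replicate 2 or vector DMSO replicate 1, and 3 without EVI1 DMSO replicate 1 or vector DMSO replicates 2 or 3.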

How the data were processed

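The 12 arrays were used as deposited: the authors' log2 values come from RMA (background correction, normalization between arrays and summary per probe set), for which the submitters' processing notes name Affymetrix Expression Console 1.3. Its settings are not given in the sources used here, and no further scaling was applied. Of 54675 probe sets, 41097 carried 1 gene symbol in the platform annotation; 1801 carried several and were left out. The brightest probe set stood for each of 19775 genes, and 14080 with a log2 level of at least 5 on at least 3 arrays were tested. RefSeq (GRCh38.p14), matched by Entrez identifier for 19735 genes, gave only names and gene order; the arms were parted at the widest gap between gene starts.

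One linear model with a mean per group took all 12 arrays (limma 3.58.1 under R 4.3.3, with lmFit and eBayes and 8 residual degrees of freedom), and p-values were adjusted by Benjamini and Hochberg over all tested genes. The fit was tested on simulated data with independent noise on each array, so that test does not cover deviations shared by same-numbered arrays. Same-numbered arrays of different groups deviated together in all 18 pairs of such arrays (r from 0.408 to 0.704), so the replicate numbers pair the arrays. The main model left this pairing out, and the fit with the replicate block used it. Whether replicates came from separate cultures is stated only as biological, and the number of arrays limits the precision. Members and lists were chosen with earlier results of these data known. Array values are given for the 12 members with the lowest average difference and for members called with ATRA without the block. Other members are given by their differences.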

Additional observations from a re-analysis of the deposited data

How the results depend on the processing

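Other settings were quantile normalization on top, no limit on low values, a limit of 6, the mean over all probe sets of a gene, an intensity trend in eBayes, the replicate block, and leaving out each array. With the replicate block, ATRA called 9 members in vector and 15 in EVI1 cells, and EVI1 called 2 partners under DMSO and 24 under ATRA, where it called 2818, 5023, 1013 and 3559 of the 14080 genes. It changed no call of the interaction. With the mean over probe sets, 33 members were tested, ATRA called 8 of them in EVI1 cells, and the median difference of EVI1 from vector cells was -0.50 under DMSO and -0.41 under ATRA. With no limit on low values, 3 partners were called under ATRA. Leaving out 1 array gave 0 to 3 called members for ATRA in vector cells and 2 to 12 in EVI1 cells, and 0 to 14 partners under ATRA. The member medians of EVI1 minus vector were then -0.59 to -0.53 (DMSO) and -0.60 to -0.55 (ATRA). The members separated over all arrays numbered 19 to 21, a count that leaving out an array cannot lower. These medians and this count describe the contrast that chose the members. The 25 results for single genes kept their direction in all 425 refits. They had been picked as calls or as the lowest averages, so a kept direction was likely beforehand. Of the refits, 233 belong to 13 tested results, and 74 fell short of the threshold. The other 192 belong to 12 differences with no test, and 9 moved by more than the SD between replicates. The cause was not tested. The 10 members with a mean level under 7 were measured nearest to background.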
